A study of Mus musculus with 9 samples.

Results

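The open chromatin of the Mesp1 lineage was compared with that of the Tbx1 lineage in control mouse embryos, with 3 Mesp1-Cre Ctrl and 3 Tbx1-Cre Ctrl ATAC-seq libraries of the 9 libraries in the series. Peaks of the 6 lists on chromosomes 1 to 19 and X were merged into 72345 regions, and a library called a region where at least 1 bp of it was covered by one of its peaks. Regions called in all 3 Mesp1-Cre Ctrl libraries and in no Tbx1-Cre Ctrl library are named Mesp1-only (536 regions), and those with the opposite pattern Tbx1-only (4111 regions). Each region was given to the protein-coding gene with the nearest transcription start site (TSS) in the mm9 annotation, which does not show that the region acts on that gene.

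All embryos were of the Swiss Webster strain and were taken at embryonic day 9.5. The Mesp1-Cre Ctrl embryos (Mesp1Cre;Rosa26-GFPflox/+) carried Cre recombinase in the Mesp1 gene, and the Tbx1-Cre Ctrl embryos (Tbx1Cre;Rosa26-GFPflox/+) carried it in Tbx1, where it inactivates that copy, so that the Tbx1-Cre Ctrl cells were heterozygous for Tbx1. In both, Cre switched on green fluorescent protein (GFP) at Rosa26, and GFP-positive cells of pooled embryos were sorted. The labels name the tissue as pharyngeal apparatus and heart for Mesp1-Cre Ctrl, and add the back for Tbx1-Cre Ctrl, while the ATAC-seq methods of the study describe a dissection without the heart. Lineage and dissection therefore cannot be told apart in this comparison. The 3 Tbx1-Cre cKO libraries (Tbx1Cre/flox;Rosa26-GFPflox/+), in which the remaining copy of Tbx1 was also deleted, took no part in choosing regions and served as a further readout. In sorted cell pools, a peak that is missing because fewer cells of a type were present cannot be told apart from one that is missing because the site was less open in each cell.

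Mesp1 encodes a basic helix-loop-helix transcription factor that is switched on briefly in early mesoderm, and its descendants form the heart, endothelium and muscle and connective tissue of the pharyngeal arches. Tbx1 encodes a T-box factor of the pharyngeal mesoderm, endoderm and ectoderm and of the otic vesicle, and its loss disturbs the outflow tract of the heart, the thymus and parathyroids, and the muscles of the jaw. ATAC-seq marks accessible DNA by the insertion of adapters by the Tn5 transposase. Distal accessible regions are often enhancers, where factors such as GATA and MEIS proteins bind short DNA words.

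The sequences of the widest exclusive regions are shown first, since the words they hold are compared later. They are the middle 200 bases of the 3 widest Mesp1-only and of 2 of the 3 widest Tbx1-only regions of named genes that lay over 1 kb from any TSS and outside exons, read from the plus strand of the mm9 reference. Capitals mark matches on either strand to AGATAA (the GATA word), TGACAG (the MEIS word) or CATCTG (an E-box of the Hand and Twist type). The Mesp1-only sequences are at chr2:85001026-85001225 near Aplnr, chr9:111917177-111917376 near Arpp21 and chr13:78923520-78923719 near Nr2f1, all intergenic. The Tbx1-only sequences are at chr7:137001488-137001687, intergenic near Wdr11, and at chr10:122190797-122190996 in an intron of Ppm1h.
Aplnr: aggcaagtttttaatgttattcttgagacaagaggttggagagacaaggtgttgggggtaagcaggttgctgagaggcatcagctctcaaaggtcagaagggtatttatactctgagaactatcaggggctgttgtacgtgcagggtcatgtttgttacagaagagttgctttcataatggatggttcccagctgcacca
Arpp21: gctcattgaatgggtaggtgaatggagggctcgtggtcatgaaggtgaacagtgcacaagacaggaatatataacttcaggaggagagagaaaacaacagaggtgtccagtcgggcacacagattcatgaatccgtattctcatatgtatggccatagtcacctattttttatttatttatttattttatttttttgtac
Nr2f1: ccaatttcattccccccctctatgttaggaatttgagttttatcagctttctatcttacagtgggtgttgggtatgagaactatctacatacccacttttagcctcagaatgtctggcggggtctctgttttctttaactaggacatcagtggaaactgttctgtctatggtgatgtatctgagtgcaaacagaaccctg
Wdr11: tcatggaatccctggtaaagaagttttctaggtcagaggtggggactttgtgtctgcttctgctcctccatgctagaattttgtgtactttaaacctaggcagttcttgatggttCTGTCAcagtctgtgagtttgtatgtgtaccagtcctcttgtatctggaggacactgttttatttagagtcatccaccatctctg
Ppm1h: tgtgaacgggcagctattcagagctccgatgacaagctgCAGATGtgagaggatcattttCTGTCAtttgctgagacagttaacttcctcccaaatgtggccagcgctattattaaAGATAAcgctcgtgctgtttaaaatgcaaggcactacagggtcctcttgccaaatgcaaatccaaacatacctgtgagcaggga

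None of the 3 Mesp1-only windows held a GATA or MEIS word. These sequences were chosen by width, and the capitals in them do not stand for the words of either class as a whole. To show what a match looks like, 3 more windows were chosen after their words had been counted, from the 26 other Mesp1-only windows of named genes that met the same conditions. Of these 26 windows, 6 held a GATA word, 10 held a MEIS word and 2 held both. They are chr6:15547463-15547662, intergenic near Mdfic, with 2 GATA words, chr2:142767091-142767290, intergenic near Kif16b, and chr2:140964156-140964355, in an intron of Macrod2 with Flrt3 as the nearest start site. The windows near Kif16b and Flrt3 each held 1 GATA and 1 MEIS word.
Mdfic: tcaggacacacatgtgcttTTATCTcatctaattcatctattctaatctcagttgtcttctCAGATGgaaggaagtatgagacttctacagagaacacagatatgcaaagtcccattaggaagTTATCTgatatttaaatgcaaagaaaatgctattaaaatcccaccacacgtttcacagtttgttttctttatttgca
Kif16b: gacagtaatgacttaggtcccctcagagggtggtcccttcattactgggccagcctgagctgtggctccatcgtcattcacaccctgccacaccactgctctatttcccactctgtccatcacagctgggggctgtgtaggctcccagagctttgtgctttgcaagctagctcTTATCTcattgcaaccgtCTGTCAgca
Flrt3: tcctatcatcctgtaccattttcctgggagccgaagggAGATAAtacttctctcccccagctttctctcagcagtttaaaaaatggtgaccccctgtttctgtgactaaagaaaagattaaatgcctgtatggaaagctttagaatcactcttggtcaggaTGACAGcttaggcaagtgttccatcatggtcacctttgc

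How many regions were exclusive to each lineage depended on the length of the lists, and the balance between the lineages changed sides with it. The Mesp1-Cre Ctrl lists held 25476 to 42638 peaks on these chromosomes and the Tbx1-Cre Ctrl lists 43271 to 49477 peaks. The numbers of Mesp1-Cre peaks that the study tabulates do not all match the deposited lists, which were used as they are. Of the 72345 merged regions, 17719 (24.5%) were called in all 6 libraries and 23494 (32.5%) in only 1. With the full lists, the 536 Mesp1-only regions were 0.741% of merged regions and lay nearest to 499 genes, 2.87% of the 17362 genes with a region. The 4111 Tbx1-only regions were 5.68% of merged regions and lay nearest to 2890 genes, 16.6% of the genes. There were thus 7.67 times as many Tbx1-only as Mesp1-only regions. The classes end abruptly at their limits: 650 regions were called in all 3 Mesp1-Cre Ctrl libraries and in 1 Tbx1-Cre Ctrl library, and 3396 in all 3 Tbx1-Cre Ctrl libraries and in 1 Mesp1-Cre Ctrl library.

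The comparison was repeated with the 25476 widest peaks of every library, the length of the shortest list. Then 1051 of 43393 merged regions were Mesp1-only (2.42%, nearest to 939 of 16079 genes, 5.84%) and 1445 were Tbx1-only (3.33%, nearest to 1203 genes, 7.48%), a ratio of 1.37. The cut itself made many of these exclusive, since 735 of the 1051 Mesp1-only and 569 of the 1445 Tbx1-only regions overlapped uncut peaks of the opposite lineage. It removed peaks below 417 to 479 bp from the Tbx1-Cre Ctrl lists, but below 359 and 237 bp from Mesp1-Cre Ctrl libraries 1 and 3, and none from library 2. When every list was cut at its widest peaks to the 12.86 Mb of the shortest list, 1280 Mesp1-only and 302 Tbx1-only regions were left, and the ratio fell to 0.236. Regions that were exclusive with the full lists and overlapped a region exclusive to the same group with equal numbers of peaks are called held below. There were 316 held Mesp1-only regions (0.437% of merged regions, 305 genes, 1.76% of genes) and 876 held Tbx1-only regions (1.21%, 773 genes, 4.45%).

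Single libraries also set these counts, since a region is lost when any 1 of 3 lists lacks it. The number of Mesp1-only regions was 1862 without Mesp1-Cre Ctrl replicate 2, the shortest list, 899 without Mesp1-Cre Ctrl replicate 3 and 981 without Tbx1-Cre Ctrl replicate 1, and the genes next to them were 1513, 790 and 862. The number of Tbx1-only regions was 6890 without Mesp1-Cre Ctrl replicate 1, 7282 without Tbx1-Cre Ctrl replicate 1 and 6395 without Tbx1-Cre Ctrl replicate 2. The count of exclusive regions is thus a value of these lists and not a measure of how much chromatin was open. The genes of the 2 directions overlapped: 225 genes had regions of both kinds, 45.1% of the genes with a Mesp1-only and 7.79% of those with a Tbx1-only region. Among genes with held regions, 53 had both, 17.4% and 6.86% of the respective genes.

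**Figure D1:**
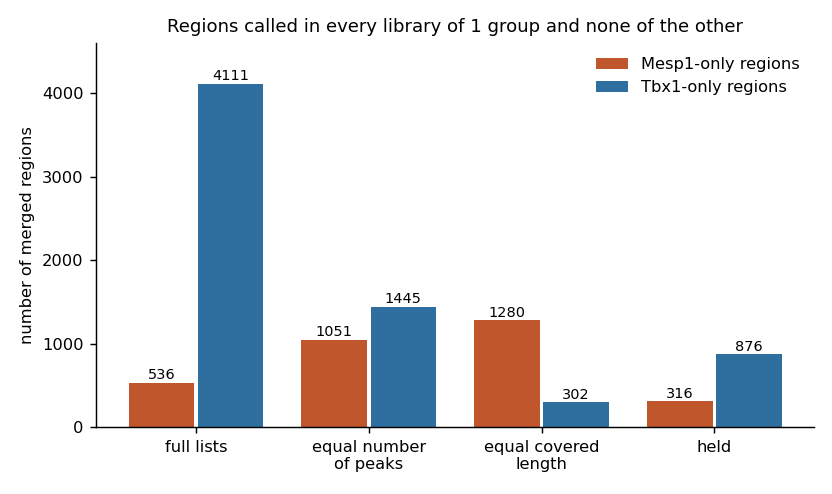
Number of merged regions (vertical axis) that every library of a group called while the opposite group lacked a peak, for the full lists, for equal numbers of peaks, for equal covered length, and for held regions. Tbx1-only regions outnumber Mesp1-only regions with the full lists (4111 and 536), and the order turns at equal covered length (302 and 1280).

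Exclusive regions lay away from promoters in both lineages. Within 1 kb of a TSS were 4 of the 316 held Mesp1-only regions (1.27%) and 21 of the 876 held Tbx1-only regions (2.40%), against 62.6% of the regions called in all 6 libraries and 21.9% of all merged regions. Their median distance to a TSS was 68569 bp for held Mesp1-only and 50735 bp for held Tbx1-only regions. Introns held 139 and intergenic DNA 173 of the held Mesp1-only regions, and 339 and 519 of the held Tbx1-only regions. The share of each library's peaks within 1 kb of a TSS was 34.4%, 49.7% and 44.4% in Mesp1-Cre Ctrl and 31.4%, 32.9% and 30.8% in Tbx1-Cre Ctrl. Every Mesp1-Cre Ctrl library was above every Tbx1-Cre Ctrl library, with a difference in means of 11.1 percentage points (exact two-sided permutation p = 0.1, n = 3 each, the smallest p that 3 against 3 can give). With equal numbers of peaks the difference was 3.56 percentage points and the groups still did not overlap.

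The Tbx1-Cre cKO libraries gave a readout that the choice of regions had not used. They share the Cre allele and the labelled dissection with Tbx1-Cre Ctrl. Their lists held 29249, 24026 and 19762 peaks on these chromosomes in libraries 1, 2 and 3, fewer than every Tbx1-Cre Ctrl list. The narrowest interval was 200 bp in every cKO and Tbx1-Cre Ctrl list and 199 bp in every Mesp1-Cre Ctrl list. Only the Mesp1-Cre Ctrl lists held mitochondrial intervals. The parts of list length and of how the lists were made in the calls below were not tested. Held Tbx1-only regions had a peak in 58.1%, 36.3% and 26.1% of cases in cKO libraries 1, 2 and 3. Held Mesp1-only regions had one in 7.91%, 5.06% and 1.58%. The held Tbx1-only share was higher in each of the 3 cKO libraries, by 35.3 ± 13.3 percentage points (SD, n = 3). An exact permutation of the signs gave a two-sided p of 0.25, below which 3 libraries cannot go. All merged regions were called in 37.2%, 30.3% and 25.5%, so held Mesp1-only regions were below this level in every cKO library, while held Tbx1-only regions were above it and closest to it in library 3. The level of all merged regions includes the 17719 regions called in all 6 libraries, which were called in 93.0%, 88.2% and 82.1%. A level without them was not computed. Of the 316 held Mesp1-only regions, 281 had no peak in any cKO library, and 272 of the 876 held Tbx1-only regions had none. With the full lists, Tbx1-only regions were called in 34.8%, 18.3% and 11.6%, below the level of all merged regions in every cKO library, and Mesp1-only regions in 6.72%, 4.10% and 1.49%. The difference between these classes was 17.5 ± 9.44 percentage points and was positive in 3 of 3 libraries (exact permutation of signs, two-sided p = 0.25). Held Tbx1-only regions were also wider than held Mesp1-only regions, with median widths of 775 and 612.5 bp, and the part of width in these calls was not tested.

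**Figure D2:**
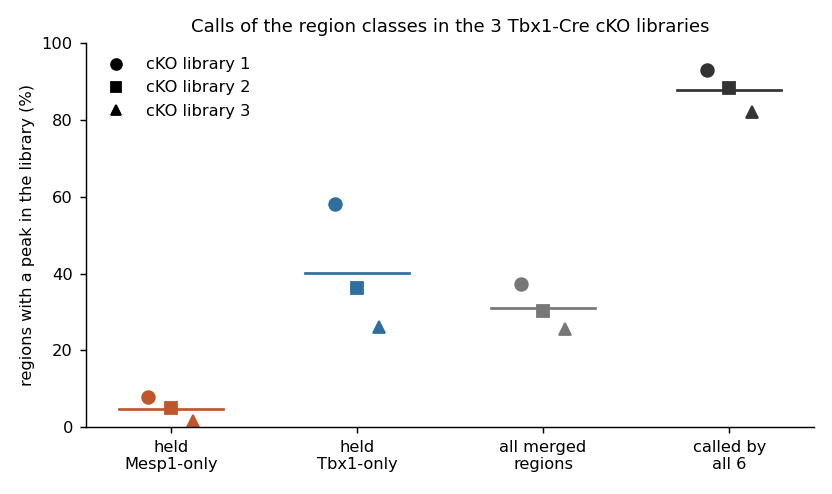
Share of regions of each class with a peak (vertical axis, percent) in the 3 Tbx1-Cre cKO libraries, which are shown by symbols, with lines at their means. Held Mesp1-only regions sit between 1.58% and 7.91% and held Tbx1-only regions between 26.1% and 58.1%.

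Short words for transcription factors were then counted in the middle 200 bases of distal peaks, those over 1 kb from a TSS, on both strands. The 17 words, named for families of factors that bind them, were AGATAA for GATA factors, TGACAG for MEIS, CAGCTG for the myogenic type of E-box, CATCTG for the Hand and Twist type of E-box, AGGTGTG for T-box factors, CTATTTNTA for MEF2, CACTTGA for NKX2, GGAATG for TEAD, TGTTTAC for forkhead, ACAATGG for SOX, ACCGGAAG for ETS, TAATTA for homeodomain, GCCNNNGGC for TFAP2, AACCNGTT for Grainyhead, TGANTCA for AP-1 and AGGGGGC for the core of the CTCF site, besides GGTATCA, which is given by its letters alone. GATA factors such as Gata4 act in heart and endoderm, and MEIS factors are partners of Hox and other homeodomain proteins. The MEIS word ends in the letters with which CAGCTG and the reverse complement of CATCTG begin, so that all of these can overlap in a sequence, and the GATA word can likewise follow it. A match describes the sequence and not a bound site, and a window without a match says nothing about the factor.

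Distal peaks of the Mesp1 lineage held GATA and MEIS words more often. The GATA word was in 11.3%, 9.96% and 11.9% of distal peaks in Mesp1-Cre Ctrl and in 8.14%, 8.89% and 8.40% in Tbx1-Cre Ctrl. Each Mesp1-Cre Ctrl library was above each Tbx1-Cre Ctrl library, by 2.58 percentage points in the mean. The MEIS word was in 19.9%, 19.8% and 19.1% against 17.6%, 17.2% and 17.5%, a difference of 2.19 percentage points with no overlap. For each word the exact two-sided permutation p was 0.1, the smallest possible, and 0.283 after Benjamini-Hochberg adjustment over the 17 words, so that neither passed 0.05. The groups did not overlap for 6 of the 17 words: the words for the myogenic E-box and the CTCF core were also higher in Mesp1-Cre Ctrl, while the SOX word and GGTATCA were higher in Tbx1-Cre Ctrl. For the myogenic E-box, the CTCF core and GGTATCA the direction turned with equal numbers of peaks. The T-box word was in 2.99% ± 0.320 of Mesp1-Cre Ctrl and 2.86% ± 0.138 of Tbx1-Cre Ctrl distal peaks (SD, n = 3 each, exact two-sided permutation p = 0.6).

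The same words set the exclusive regions apart more strongly. Of distal Mesp1-only regions 27.4% (143 of 521) held the GATA word, against 7.58% (299 of 3944) of distal Tbx1-only regions and 10.5% of all distal merged regions. Among held regions the shares were 28.5% (89 of 312) and 6.32% (54 of 855). The MEIS word was in 35.7% of distal Mesp1-only and 18% of distal Tbx1-only regions, and in 18.7% of all distal merged regions. Held regions gave 38.1% and 18.6%. The Tbx1-only regions thus lay at the common level for the MEIS word and below it for the GATA word. These shares are given without a test, since the regions of 1 set of libraries are not replicates.

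The difference in GATA and MEIS words between the exclusive classes was present in every setting tried. Only these words were followed through the settings, and this was added after the data had been seen. The settings reuse the same peaks and are not independent of each other. Leaving out each library in turn gave a GATA share of 22.3% to 26.9% in Mesp1-only and of 7.21% to 8.82% in Tbx1-only regions, and a MEIS share of 28.4% to 35.7% and of 17.5% to 18.4%. At equal covered length, where Mesp1-only regions were the more numerous, the GATA shares were 16.1% and 5.48% and the MEIS shares 29.1% and 16.8%. The GC content of distal windows was 48.2% in Mesp1-only, 49.8% in Tbx1-only and 50.2% in all distal regions, and 48.6% and 50% in the held classes. The mirrored word AATAGA, which has the letters of the GATA word in reverse order, was in 9.40% of Mesp1-only, 7.10% of Tbx1-only and 7.32% of all distal regions. The mirrored MEIS word GACAGT was in 10.9%, 10.5% and 11%. The mirrored words were chosen after the data had been seen, and the mirrored MEIS word shares the run GACAG with the MEIS word. The part of base composition in the word shares was not tested.

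Other words also differed between the held classes. In held Mesp1-only, held Tbx1-only and all distal merged regions, the NKX2 word was in 5.13%, 1.99% and 2.81%. The homeodomain word was in 8.65%, 4.33% and 4.41%, and the TEAD word in 19.9%, 13.7% and 13.7%. The myogenic E-box CAGCTG was in 26.3%, 18.8% and 17.9%. In the opposite direction, the TFAP2 word was in 3.85%, 8.89% and 7.42%. The CATCTG E-box was above the level of all distal regions in both classes, with 24%, 26.4% and 20.1%.

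**Figure D3:**
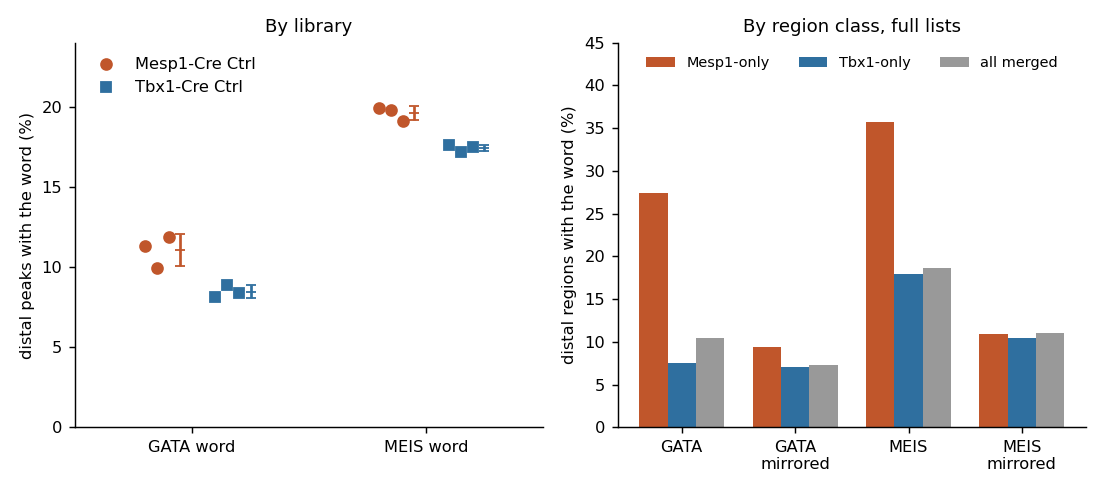
Left, share of distal peaks with the GATA or MEIS word (vertical axis, percent) in each library, with bars for mean ± SD of 3 libraries; right, share of distal regions with each word and with its mirrored form, by class with the full lists. The GATA word reaches 27.4% of Mesp1-only regions and 7.58% of Tbx1-only regions, while its mirrored form stays between 7.10% and 9.40%.

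The 2 genes that drive Cre were examined next. Tbx1 (ENSMUSG00000009097.8, chr16:18581806-18588113, minus strand) was nearest to 8 merged regions, of which none was exclusive. Its widest difference was at an intergenic region 14083 bp from the Tbx1 TSS, chr16:18601410-18602983. Peaks there covered 267, 384 and 263 bp in Mesp1-Cre Ctrl and 1402, 1426 and 1321 bp in Tbx1-Cre Ctrl, with no overlap between the groups. The log2 difference in width was -1.98 ± 0.236 (SE; limma, adjusted p = 0.0602), which did not pass 0.05, although it did without centring of the libraries (limma, adjusted p = 0.037). Of the cKO libraries, 1 had a peak there. The region over the Tbx1 promoter, 515 bp from the TSS, was covered over 394, 305 and 0 bp in Mesp1-Cre Ctrl and over 641, 622 and 889 bp in Tbx1-Cre Ctrl, and by no cKO library.

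Mesp1 (ENSMUSG00000030544.5, chr7:86937127-86938674, minus strand) was nearest to 5 regions, and again none was exclusive. The 1 region called in all 6 libraries lay in an intron of Wdr93, 12894 bp from the Mesp1 TSS, with 406, 330 and 472 bp in Mesp1-Cre Ctrl and 939, 395 and 281 bp in Tbx1-Cre Ctrl. The coding exon of Mesp1 was called in 1 library, Tbx1-Cre Ctrl replicate 1.

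Among genes with held Mesp1-only regions, 11 had 2 such regions, none had more, and 294 had 1. The members of the marker lists in this direction are described by role, with bases covered in Mesp1-Cre Ctrl libraries 1, 2 and 3, while all 3 Tbx1-Cre Ctrl libraries had 0 bp by definition. Aplnr, the apelin receptor of early heart progenitors, had an intergenic region at chr2:85000708-85001544, 24609 bp from its TSS, with 825, 802 and 720 bp. It was the widest of the Mesp1-only regions at list genes. Wnt2, a secreted Wnt ligand of the inflow pole of the heart, had one at chr6:17888522-17889423 with 611, 470 and 902 bp, which lay in an intron of St7, and its middle held a GATA word. Ryr2, the calcium release channel of heart muscle, had an intergenic region 26884 bp from its TSS with 369, 226 and 267 bp.

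Receptors and transcription factors made up most of the others. Flt1, a receptor for vascular endothelial growth factor, had a region in its own intron with 381, 289 and 312 bp. Nr2f1, a nuclear receptor of the COUP-TF type, had 2 intergenic regions far from its TSS, at 479965 and 584601 bp, with 502, 418 and 581 bp and with 602, 812 and 654 bp. Foxc1, a forkhead factor of mesoderm, had one of 509, 505 and 546 bp, 248944 bp away in an intron of Gmds. Six2, a homeodomain factor, had 398, 199 and 521 bp, and Foxa2, a forkhead factor of endoderm, had 678, 365 and 733 bp. The regions of Foxc1, Six2 and Foxa2 all lay over 100 kb from the TSS. Each of these 3 genes also had Tbx1-only regions with the full lists, 2 at Foxc1, 1 at Six2 and 3 at Foxa2.

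The 10 genes named for most held Mesp1-only regions had 2 each and were outside the marker lists. At equal covered length, where Mesp1-only regions were more numerous in all, 9 of the 18 genes named in this direction had none left, namely Zeb2, Acvr2a, Xrcc4, Kif16b, Fam110b, Ryr2, Flt1, Six2 and Foxc1. Acvr2a, a receptor for activins, had its regions 319926 and 275139 bp from the TSS, with 590, 310 and 569 bp and with 376, 448 and 290 bp. Zeb2, a repressor that acts in the transition from epithelium to mesenchyme, had regions at 54557 and 1408160 bp. Mdfic, an inhibitor of myogenic factors, had one of 944, 565 and 501 bp upstream, whose sequence is shown above, and one of 428, 385 and 321 bp in its own intron. Both held a GATA word. Tubb2a, a beta-tubulin, had regions at 1072 and 11214 bp from its TSS with 615, 447 and 491 bp and with 592, 540 and 515 bp. The remaining genes were Xrcc4, Arpp21, Kif16b, Fam110b, Pcdh7 and Flrt3. Of the 10 genes, 7 also had Tbx1-only regions with the full lists, namely Acvr2a and Fam110b with 3 each, and Zeb2, Xrcc4, Kif16b, Pcdh7 and Flrt3 with 1 each.

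Of the 773 genes with held Tbx1-only regions, 682 had 1, 80 had 2 and 10 had 3. Pgpep1l, which encodes a pyroglutamyl peptidase-like protein, had 4. Held Tbx1-only regions were also more numerous than held Mesp1-only regions (876 and 316), and the part of this number in the grouping was not tested. One of the regions nearest to Pgpep1l lay in an intron of its neighbour Igf1r. Bases covered are given for Tbx1-Cre Ctrl libraries 1, 2 and 3, and all Mesp1-Cre Ctrl libraries had 0 bp by definition. Tbx18, a T-box factor of the sinus venosus and epicardium, had 3 intergenic regions, and each was also called in 2 or 3 cKO libraries. The region 28867 bp from the TSS had 471, 671 and 704 bp and the one at 165246 bp had 686, 659 and 897 bp. Tbx18 had no Mesp1-only region with the full lists.

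Signalling and skeletal genes followed. Bmp7, a ligand of the bone morphogenetic protein family that is expressed in pharyngeal epithelia, had 7 Tbx1-only regions, of which 3 were held. The held region nearest to its TSS, chr2:172760386-172761188 in a Bmp7 intron, had 679, 672 and 678 bp, and the most distant, at 108735 bp, had 792, 473 and 880 bp. Sox9, a factor of cartilage, neural crest and endoderm, had 7 Tbx1-only regions, 3 of them held, and 1 held Mesp1-only region with 578, 199 and 347 bp. Its 3 held Tbx1-only regions lay between 102675 and 379468 bp from the TSS. Tns3, which encodes a tensin of focal adhesions, had 3 held regions, and the 1 at chr11:8439771-8440493 in its intron had 690, 715 and 699 bp. The remaining genes by number were Vstm2b, Tnp1, Wdr11, St6galnac3 and Ppm1h, with 3 held regions each.

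At the marker lists, held Tbx1-only regions lay near genes of several germ layers. At equal covered length 16 of the 25 genes named for Tbx1-only regions had none left, among them Bmp7, Ppm1h, Tbx18 and every list gene but Erg and Tie1. Eya1, a transcriptional cofactor of pharyngeal mesoderm, placodes and thymus, had 696, 934 and 776 bp at chr1:14305511-14306691, 5820 bp from its TSS, and 2 cKO libraries called it. Foxc2 had 700, 677 and 558 bp, and Foxc1 had 817, 739 and 643 bp at 9218 bp from its TSS. Lmx1a, a homeodomain factor of the otic vesicle, had 779, 630 and 611 bp in its own intron, and Tcfap2a, the AP-2 alpha factor of surface ectoderm and neural crest, had 585, 735 and 643 bp at 26243 bp. Sox2, of foregut endoderm and placodes, had 479, 446 and 601 bp at 440706 bp. With the full lists Sox2 had 2 Tbx1-only and also 2 Mesp1-only regions, and the Mesp1-only regions were not held.

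Blood and vessel genes, somite genes and 2 heart muscle genes were also in this direction. Tie1, a receptor tyrosine kinase of endothelium, was nearest to a single region, in its intron, with 791, 724 and 810 bp, and all 3 cKO libraries called it. Erg, an endothelial ETS factor, had 920, 658 and 788 bp, and Runx1, a factor of blood formation, had 654, 648 and 580 bp. Uncx, Ripply1 and Meox1, genes of the somite, had 1 held region each, and that of Ripply1 overlapped its promoter, 349 bp from the TSS, with 863, 581 and 708 bp. Actc1, the cardiac alpha-actin gene, had 676, 637 and 664 bp in a region centred 11 bp from an annotated TSS. The other region nearest to Actc1 was called in Mesp1-Cre Ctrl libraries 1 and 3 and in no Tbx1-Cre Ctrl library. Myocd, a coactivator of heart and smooth muscle genes, had 461, 521 and 688 bp, and Nr2f2, a nuclear receptor of veins and atria, had 623, 419 and 510 bp.

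The 12 marker lists held 199 entries, of which 1 was not matched to the annotation, and gave 197 different genes. Together they were nearest to 1417 regions, of which 17 were Mesp1-only (1.20%, against 0.741% of all regions), 86 Tbx1-only (6.07%, against 5.68%), 9 held Mesp1-only (0.635%, against 0.437%) and 18 held Tbx1-only (1.27%, against 1.21%). The Tbx1-only shares were near the level of all regions, and the Mesp1-only shares were above it, on 17 and 9 regions. At least 1 Mesp1-only region lay near 14 of the 187 list genes with a region (7.49%, against 2.87% of all genes), and at least 1 Tbx1-only region near 55 (29.4%, against 16.6%). List genes also had more regions each, with 1417 regions at 187 genes against 72345 regions at 17362 genes in all.

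Heart lists took a larger share of the regions that the Mesp1-Cre Ctrl libraries called. Regions at the 22 cardiomyocyte genes made up 0.167%, 0.124% and 0.173% of the called regions in Mesp1-Cre Ctrl and 0.120%, 0.120% and 0.119% in Tbx1-Cre Ctrl, with no overlap. Regions at the 15 genes of the posterior second heart field, septum transversum and proepicardium made up 0.283%, 0.252% and 0.291% against 0.222%, 0.207% and 0.223%, again with no overlap. At cardiomyocyte genes the groups nearly met, at 0.124% and 0.120%. Of the 12 lists, 4 had groups that did not overlap, 2 of them higher in Mesp1-Cre Ctrl. No test was run on these shares. A share also depends on how many regions a library called, and the part of list length was not tested. For exclusive regions at cardiomyocyte genes the balance depended on list length. With the full lists 1 of 127 regions was Mesp1-only (0.787%) and 3 were Tbx1-only (2.36%), while with equal numbers of peaks 6 of 68 were Mesp1-only (8.82%, against 2.42% of all regions) and 2 were Tbx1-only (2.94%, against 3.33%). With the full lists, the posterior list had 5 Mesp1-only regions of 194 (2.58%, against 0.741% of all regions). These were 2 at Nr2f1 and 1 each at Wnt2, Hand2 and Nr2f2. Its Tbx1-only regions were 7 (3.61%, against 5.68%). With equal numbers of peaks the posterior list had 8 Mesp1-only (7.02%, against 2.42%) and 6 Tbx1-only regions (5.26%, against 3.33%) of 114. Because the labelled dissections differ, the part of heart tissue in these values was not tested.

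The remaining lists were lower in Mesp1-Cre Ctrl or overlapped between the groups. Neural crest genes made up 0.0419%, 0.0413% and 0.0346% of called regions in Mesp1-Cre Ctrl and 0.0513%, 0.0649% and 0.0597% in Tbx1-Cre Ctrl, and otic vesicle and placode genes 0.116%, 0.0826% and 0.111% against 0.147%, 0.123% and 0.124%. Both were lower in every Mesp1-Cre Ctrl library. For somite and limb genes, 17 of 167 regions were Tbx1-only (10.2%, against 5.68% of all regions), near 11 of the 20 genes (55%, against 16.6% of all genes), and 0 were Mesp1-only. This contrast belongs to the full lists, since with equal numbers of peaks 4 of 87 regions were Tbx1-only and 3 Mesp1-only, and 3 of the 167 were held Tbx1-only (1.80%, against 1.21%). Prrx1, a mesenchymal homeobox gene of the limb, had 4 of the 17. The libraries of the groups overlapped in the share of regions at this list. Endothelial, blood, cardiopharyngeal mesoderm, branchiomeric muscle, pharyngeal endoderm, epithelial and neural tube lists overlapped between groups as well. With the full lists, cardiopharyngeal mesoderm genes had 6 Mesp1-only regions of 177 (3.39%, against 0.741% of all regions) and 12 Tbx1-only regions (6.78%, against 5.68%). With equal numbers of peaks this list had 4 Mesp1-only (3.6%, against 2.42% of all regions) and 3 Tbx1-only regions (2.7%, against 3.33%) of 111. Pharyngeal endoderm genes had 3 Mesp1-only regions of 115 (2.61%) and 8 Tbx1-only regions (6.96%) with the full lists, and 3 of each kind of 60 (5%) with equal numbers of peaks. With the full lists, epithelial and surface ectoderm genes had 6 Tbx1-only regions of 89 (6.74%, near the 5.68% of all regions), at Grhl2, Trp63, Tcfap2a, Tcfap2c and Cdh1, and 0 Mesp1-only regions. With equal numbers of peaks they had 2 and 1 of 49.

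**Figure D4:**
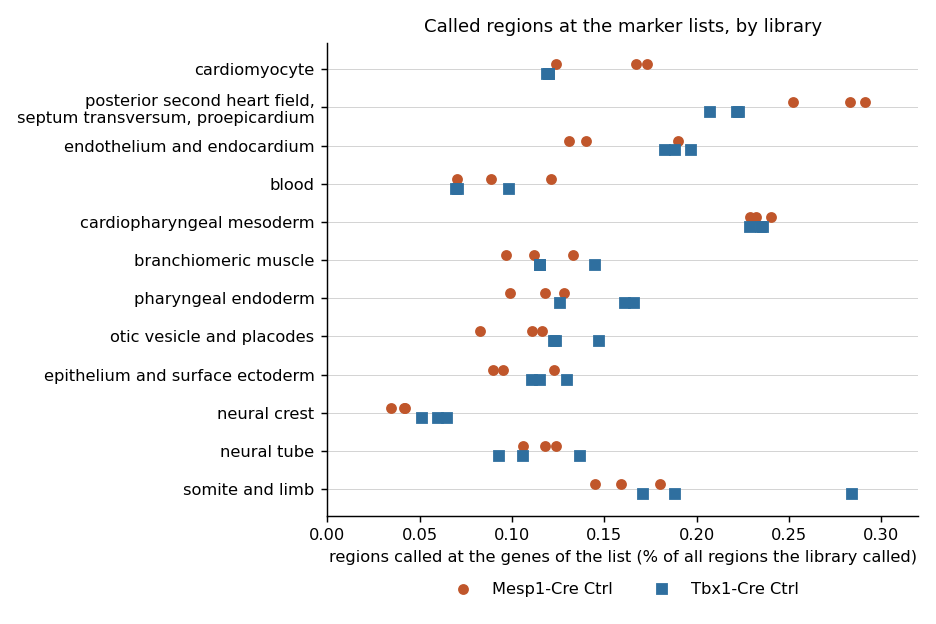
Regions at the genes of each marker list as a percentage of all regions a library called (horizontal axis), with 1 point for each of the 3 libraries of a group. Mesp1-Cre Ctrl libraries lie above Tbx1-Cre Ctrl libraries for cardiomyocyte genes and for the posterior second heart field list, and below them for neural crest and for otic vesicle and placode genes.

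Called regions were also counted gene by gene. With the full lists, every Mesp1-Cre Ctrl library called more regions than every Tbx1-Cre Ctrl library at 46 genes (0.265% of 17362), and the opposite held at 1493 genes (8.6%). Of the 197 list genes, 1 was in the first class, Wnt2, with 5, 4 and 7 regions against 2, 1 and 2. The second class held 23 list genes, of which 7 were somite and limb genes and 6 endothelial genes. Lmx1a had 7, 5 and 6 regions against 14, 15 and 13. Grhl2, a factor of epithelial identity, had 4, 2 and 2 against 12, 9 and 10. Kdr, a receptor for vascular endothelial growth factor, had 9, 4 and 6 against 15, 10 and 10.

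With equal numbers of peaks, every Mesp1-Cre Ctrl library called more regions at 368 genes (2.29% of 16079) and every Tbx1-Cre Ctrl library at 458 genes (2.85%). Among list genes 11 were in the first class and 6 in the second. Values in this paragraph are counts after the cut, and with the full lists Wnt2 alone of the 11 was apart in this direction. Of the 11, 3 were cardiomyocyte genes and 3 belonged to the posterior list. Tnnt2, cardiac troponin T, had 2, 2 and 1 regions against 0, 0 and 0, and with the full lists 3, 2 and 3 regions in both groups. Ryr2 had 5, 5 and 7 against 2, 4 and 2, and Myh7, a myosin heavy chain of heart muscle, had 1, 1 and 1 against 0, 0 and 0. Hand2, a basic helix-loop-helix factor of heart and arches, had 7, 7 and 9 against 2, 5 and 2. Osr1, a zinc-finger factor of the posterior second heart field, had 4, 5 and 5 against 2, 3 and 1, and Wnt2 had 5, 4 and 5 against 1, 1 and 1. The 6 genes in the second class were Tbx18, Erg, Tie1, Lmx1a, Grhl2 and Myocd. Erg had 0, 1 and 0 regions in Mesp1-Cre Ctrl against 3, 2 and 5 in Tbx1-Cre Ctrl.

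Peak width, the only graded value in the lists, was compared in the 17719 regions called by all 6 libraries. After centring each library on its median, limma called 0 regions (0%) at an adjusted p under 0.05, and the lowest adjusted p was 0.0515. At an unadjusted p under 0.05 there were 560 regions wider in Mesp1-Cre Ctrl and 1108 wider in Tbx1-Cre Ctrl. A variance trend in limma, added after the data had been seen, gave 0 calls as well. The following regions therefore rank highest and did not pass the threshold. The median log2 difference was 0.02 over all regions and -0.10 over the 220 regions of list genes.

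The regions widest in Mesp1-Cre Ctrl relative to Tbx1-Cre Ctrl were near Ltbp1, Gm9897, Gata2, Robo1 and Eea1. Ltbp1 encodes a binding protein of latent TGF-beta, and the region in its intron had 731, 534 and 580 bp in Mesp1-Cre Ctrl and 252, 200 and 200 bp in Tbx1-Cre Ctrl (log2 difference 1.72 ± 0.142, SE; limma, adjusted p = 0.0515). Gata2, a GATA factor of blood and endothelium, had 647, 467 and 496 bp against 315, 232 and 234 bp at a start site (log2 difference 1.26 ± 0.159; limma, adjusted p = 0.0693). With regions of 1 peak per library alone, limma called 2 regions wider in Mesp1-Cre Ctrl, those of Ltbp1 and Gm9897 (limma, adjusted p = 0.0354 and 0.0499), and 15 wider in Tbx1-Cre Ctrl.

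The regions widest in Tbx1-Cre Ctrl were near 5830454E08Rik, Rad21, 1700001O22Rik, Fam69b and Adamts9. The region 39818 bp from the TSS of Rad21, a cohesin subunit, had 399, 244 and 287 bp in Mesp1-Cre Ctrl and 1091, 1172 and 1155 bp in Tbx1-Cre Ctrl (log2 difference -1.69 ± 0.152; limma, adjusted p = 0.0515). Adamts9, a secreted metalloproteinase, had 200, 199 and 217 bp against 629, 673 and 711 bp (log2 difference -1.49 ± 0.145; limma, adjusted p = 0.0515). The regions of Rad21, 5830454E08Rik and Adamts9 passed the threshold with regions of 1 peak per library (limma, adjusted p = 0.0354 for each), and without centring, where all 17 calls were wider in Tbx1-Cre Ctrl, those of 5830454E08Rik and Adamts9 (limma, adjusted p = 0.0232 for each), 1700001O22Rik (0.037) and Fam69b (0.042) did. Of all 17719 regions, 1668 had an unadjusted limma p under 0.05, 560 of them wider in Mesp1-Cre Ctrl. Of the 220 regions of list genes, 46 did, 12 of them wider in Mesp1-Cre Ctrl. After the Tbx1 region, the lowest p was at Crabp1, a retinoic acid binding protein of neural crest, with 355, 251 and 343 bp against 752, 734 and 720 bp (limma, adjusted p = 0.0699).

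**Figure D5:**
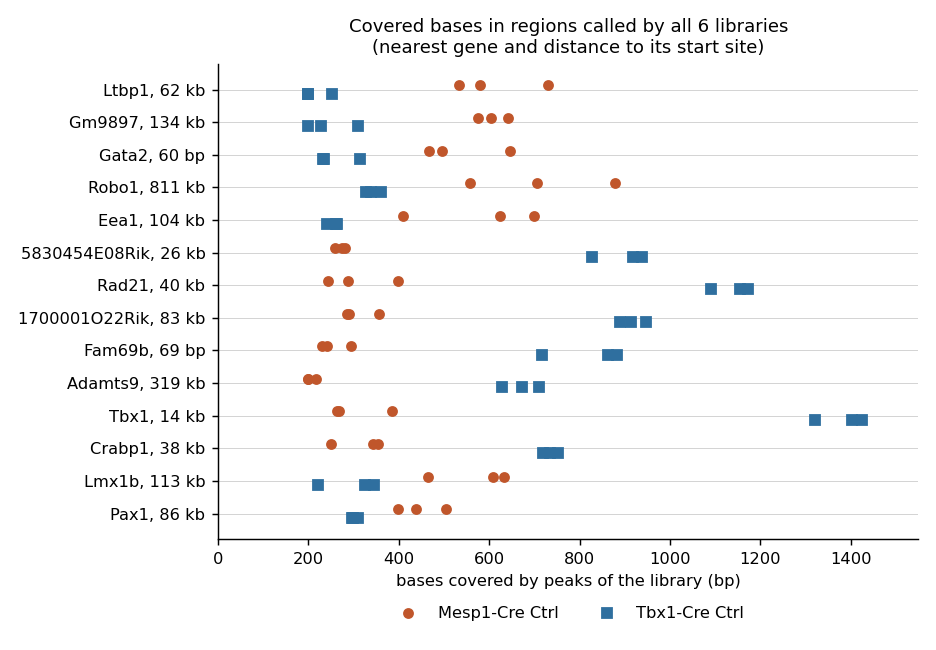
Bases covered by peaks (horizontal axis, bp) in each library for regions called by all 6 libraries: the 5 regions with the lowest limma p in each direction, and the 4 regions of list genes with the lowest p. The groups do not overlap at any region shown, and the widest gap is at Tbx1, with 263 to 384 bp against 1321 to 1426 bp.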

How the data were processed

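The authors deposited 1 peak list per library with chromosome, start and end of each peak in bp and no score. Per the methods and labels, adapters were trimmed with cutadapt, reads were aligned to mm9 with Bowtie2 (version 2.3.4.3 per the submitters' processing notes), duplicates and mitochondrial reads were removed, and peaks were called per library with MACS2. Read depth is not given in the sources used here. Nothing in the labels states whether the 3 libraries of a group came from separate litters, so tests measure the spread between these libraries. The main text of the study gives fewer ATAC-seq replicates than its legends, and all 3 were used.

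Groups were taken from the labels. Peaks on chromosomes 1 to 19 and X were merged (overlap of at least 1 bp), and regions were given to the nearest TSS of 22202 protein-coding genes (GENCODE vM1, mm9) from their midpoint. Named genes were the 10 with most held regions per direction, up to 5 members of each marker list with a held region, those of the 5 regions with the lowest limma p per direction, and Tbx1 and Mesp1. Other list genes in the counts of called regions, Crabp1 and the 3 sequences shown for their words were named after their values were seen. Older symbols were matched through RefSeq synonyms (GRCm38.p6). The members and lists were chosen with earlier results of these data known. Group means of library values were compared by enumerating all 20 relabellings (exact permutation test, two-sided, smallest p 0.1). Log2 covered bases were compared with limma 3.58.1 (R 4.3.3), with Benjamini-Hochberg adjustment over all regions. Scripts ran in Python 3.11.15 (with pandas 2.3.3, numpy 2.4.6 and matplotlib 3.10.9) and were tested on simulated data. The sequences were read from the mm9 reference, and some items that these rules name are not reported here.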

Additional observations from a re-analysis of the deposited data

Results flagged for a closer look

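The mitochondrial chromosome, which the comparison did not use, held 2 intervals in each of Mesp1-Cre Ctrl libraries 1, 2 and 3, covering 6967, 6799 and 6851 bp, and 0 in each Tbx1-Cre Ctrl and Tbx1-Cre cKO library. The methods state that mitochondrial reads were removed. The narrowest interval also differed, with 199 bp in every Mesp1-Cre Ctrl list and 200 bp in every Tbx1-Cre Ctrl and Tbx1-Cre cKO list. Whether the lists of the groups were made in the same way was not tested.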

How the results depend on the processing

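No score or depth comes with the peaks, so the absence of a peak cannot be read as closed DNA, and the counts of exclusive regions followed the lists. Mesp1-only and Tbx1-only regions, with their genes, numbered 1051 and 1445 (939 and 1203 genes) with equal numbers of peaks, 1280 and 302 (1180 and 298 genes) at equal covered length, and 249 and 2306 (238 and 1820 genes) when peaks had to cover 50% of a region. Genes with Mesp1-only regions numbered 326 within 100 kb and 319 with start sites of all biotypes. Leaving out 1 library gave 604 to 1862 Mesp1-only regions (564 to 1513 genes), 4392 to 7282 Tbx1-only regions (3032 to 4237 genes), 7.68 to 15.3 percentage points for the promoter share, 6 to 11 words whose groups did not overlap, and 0 limma calls for width each time. The 11 words were found without Tbx1-Cre Ctrl replicate 1, and the cause was not tested. The widest 75% of each list (362 and 3116 regions) and autosomes alone (531 and 4059 regions) moved the counts of regions by less than 1.5 times. With equal numbers of peaks the word differences of the myogenic E-box (-0.6), GGTATCA (0.0013) and CTCF core (-0.145 percentage points) turned direction. Width gave 17 calls without centring, all wider in Tbx1-Cre Ctrl, which moved the median log2 difference of all regions from 0.02 to -0.20, and 17 calls in regions with 1 peak per library, 15 of them wider in Tbx1-Cre Ctrl, and the cause was not tested. The replicate numbers gave deviations that correlated by 0.0482, 0.0254 and 0.0147, so the libraries were taken to share only a number, and 4 of 6 libraries correlated best with their own number. A replicate block gave 0 limma calls (lowest adjusted p 0.251).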
